A study of Mus musculus with 10 samples.

Results

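Fat genes were followed in RNA sequencing of the mouse left atrium around the openings of the pulmonary veins. The genes were a list of 36 that act in white or brown fat cells, chosen by name with earlier results of these data known. All 36 were found among the 54532 genes of the deposited gene table. They comprised 6 genes of heat production and brown fat, 4 of proteins that fat cells secrete, 2 transcription factors of fat cells, 4 lipid droplet coat proteins, 2 lipases, 6 genes of triglyceride synthesis and glycerol handling, 6 of fatty acid synthesis, 4 of fatty acid uptake and 2 other enzymes abundant in fat. There were 6 libraries of mice with an induced deletion of the T-box transcription factor gene Tbx5 (CKO, genotype R26creERT2/creERT2; Tbx5flox/flox) and 4 of controls (Ctrl, genotype R26creERT2/creERT2; Tbx5+/+). CreERT2 is a Cre recombinase that tamoxifen activates. Both groups carried 2 copies of it at the Rosa26 locus, which is active in nearly all cell types, so the deletion was not limited to heart muscle or to fat. Both groups also received tamoxifen, by injection on 3 days at the age of 6 weeks, and were killed 1 week later at 7 weeks. The atrial appendage and most of the veins were cut away, with 1 to 2 mm of venous tissue left on the piece.

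White fat cells store triglyceride in a large droplet and release fatty acids and hormones such as adiponectin, leptin and resistin. Brown fat cells burn fatty acids to make heat, through the mitochondrial uncoupling protein Ucp1, and the sympathetic nerves drive them through the beta-3 adrenergic receptor Adrb3. Pparg and Cebpa are the transcription factors of fat cell formation in both kinds. In mice, fat of both kinds lies beside the large vessels of the chest, and a piece of tissue cut around a vessel can hold some of it.

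The libraries held 8602794 to 10040808 counted fragments each. The gene count of Tbx5 was 268 ± 105 CPM (counts scaled by library size) in CKO libraries and 134 ± 31.6 CPM in Ctrl libraries (SD, n = 6 and 4; log2 fold change 1.00, adjusted p = 0.101), and so did not fall. By general knowledge of the allele, not from the labels, recombination removes exon 3. Its coverage was 0.175 to 0.618 times that of the median exon in the CKO libraries and 0.903 to 1.70 times in the Ctrl libraries, without overlap. Markers of airway and lung stood apart in 2 libraries, with a summed level of 6572 CPM in CKO 4 and 3954 CPM in Ctrl 3, against 228 CPM in Ctrl 1 and at most 34.3 CPM in the other 7. Lymphocyte markers summed to 755 CPM in CKO 4, 550 CPM in Ctrl 3 and 1120 CPM in Ctrl 4, against 16.9 to 58.4 CPM in the others. Xist, a long RNA made from the silenced X, stood at 1093 to 1371 CPM in CKO 1, 2 and 3 and at 1004 and 1202 CPM in Ctrl 2 and 1, against 2.82 to 6.44 CPM in CKO 4, 5 and 6 and 1.44 and 3.65 CPM in Ctrl 3 and 4.

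The stretch of DNA just before the start of a gene is its promoter, and RefSeq sequences of it (build GRCm38.p6, 250 bases before the start) were at hand for 25 of the 36 genes, in 31 windows. The 11 without one were Adrb3, Car3, Ces1f, Cidea, Dgat1, Dgat2, Elovl3, Fabp4, Gpd1, Lpl and Scd1. The windows of Ucp1 and Adipoq are shown because these 2 genes stand for brown and for white fat in the values that follow, and those of Dio2 and Lep because each held a rare motif. Ucp1 encodes the uncoupling protein (window chr8:83290098-83290347, plus strand), Adipoq adiponectin (chr16:23146286-23146535, plus strand), Dio2 the deiodinase that activates thyroid hormone in brown fat (chr12:90739039-90739288, minus strand) and Lep leptin (chr6:29059971-29060220, plus strand). Capitals mark matches to the motifs searched.
Ucp1: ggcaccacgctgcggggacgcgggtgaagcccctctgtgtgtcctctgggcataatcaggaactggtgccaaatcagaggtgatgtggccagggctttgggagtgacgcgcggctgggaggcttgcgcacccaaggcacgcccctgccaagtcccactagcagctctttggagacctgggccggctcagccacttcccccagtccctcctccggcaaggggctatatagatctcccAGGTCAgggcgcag
Adipoq: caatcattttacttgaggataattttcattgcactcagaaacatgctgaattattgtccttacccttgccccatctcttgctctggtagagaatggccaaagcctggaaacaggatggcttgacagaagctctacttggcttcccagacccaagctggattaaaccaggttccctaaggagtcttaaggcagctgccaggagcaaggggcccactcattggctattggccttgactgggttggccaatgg
Dio2: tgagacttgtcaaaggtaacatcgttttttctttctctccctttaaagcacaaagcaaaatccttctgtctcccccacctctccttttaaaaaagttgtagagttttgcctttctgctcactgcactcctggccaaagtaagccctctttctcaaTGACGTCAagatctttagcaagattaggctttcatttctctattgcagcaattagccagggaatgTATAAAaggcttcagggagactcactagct
Lep: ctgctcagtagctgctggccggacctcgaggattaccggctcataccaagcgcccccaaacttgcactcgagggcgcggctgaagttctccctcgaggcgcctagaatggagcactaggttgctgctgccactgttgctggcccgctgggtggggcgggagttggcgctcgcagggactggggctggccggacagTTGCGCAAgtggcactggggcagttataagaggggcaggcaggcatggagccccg

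The motifs were searched on both strands. The nuclear receptor core AGGTCA stood in the Ucp1 window and in 10 of the 31 windows, which belonged to 8 genes (Acly, Aqp7, Cd36, Elovl6, Plin5, Pparg, Slc27a2 and Ucp1), against 14.0% of all 32851 RefSeq windows. The cyclic AMP response element TGACGTCA was found in the Dio2 window alone among the 31, and in 1.55% of all windows. The palindrome TTGCGCAA, bound by C/EBP factors, was found in the Lep window alone among the 31, and in 0.164% of all windows. The TATA box TATAAA occurred in windows of Cebpa, Dio2 and Pparg (3 windows; 12.4% of all windows). The T-box core AGGTGT occurred in 5 windows, those of Aqp7, Cidec, Pnpla2 and Pparg (11.8% of all windows). The windows of Aqp7 overlap, so that an AGGTCA and an AGGTGT there were each counted in more than 1 window. The E-box CACGTG occurred in a window of Lipe (6.02%). The direct repeat of AGGTCA with 1 base between the copies was in none of the 31 and in 0.0335% of all windows. The Adipoq window held none of these letters. A match is a run of letters, not a bound site.

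Levels of different genes were compared as TPM, the usual per-length measure of transcript abundance. Lpl, the lipase that frees fatty acids from blood lipoproteins, was at 1382 ± 208 TPM in CKO and 1033 ± 339 TPM in Ctrl libraries (SD, n = 6 and 4). Fabp4, a fatty acid carrier of fat cells and capillary endothelium, was at 1077 ± 399 and 1383 ± 386 TPM, and the fatty acid transporter Cd36 at 923 ± 65.7 and 1011 ± 110.1 TPM, in CKO and Ctrl libraries. Lpl and Fabp4 did not differ beyond the spread between libraries, and Cd36 lay below Lpl in the CKO libraries but not beyond the spread in the Ctrl libraries. Next came the secreted complement factor Cfd (adipsin), at 699.8 ± 671 TPM in CKO and 1025 ± 312 TPM in Ctrl libraries, and Car3, a carbonic anhydrase abundant in fat, at 529 ± 470 and 971 ± 472 TPM. Ucp1 was seventh in this order, at 199.8 ± 192 TPM in CKO and 451 ± 315 TPM in Ctrl libraries. Adiponectin was at 99.4 ± 77.3 TPM in CKO and 184 ± 51.7 TPM in Ctrl libraries. At the low end stood the receptor Adrb3 (3.02 ± 2.31 TPM in CKO and 11.9 ± 11.0 TPM in Ctrl), the brown fat regulator Prdm16 (1.39 ± 0.692 and 1.92 ± 0.705 TPM) and Lep (0.356 ± 0.430 and 1.39 ± 1.62 TPM). From Cfd downwards the standard deviations of most neighbours in the order were wider than the gap between them.

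The same list was looked up in the authors' deposited table, which compares the peri-pulmonary vein tissue with the atrial appendage in control mice. Fat genes were higher in the peri-pulmonary vein tissue in that comparison. The appendage libraries behind it are not samples of this series, and whether the sets of libraries differ in more than region was not tested. In the authors' deposited table, which holds 35 of the 36 genes (not Lep) among 13646, 29 were higher in the vein tissue at a false discovery rate (FDR) under 0.05, against a background of 8.19% of all genes, and 0 were lower, against a background of 4.06%. The median log2 fold change in the authors' deposited table was 3.39 for these genes and 0.00 for all genes. The authors' deposited table gives log2 fold changes of 6.70 for Pck1, 5.71 for the droplet protein Plin1, 5.55 for Car3, 5.29 for Adipoq, 5.11 for Cidec and 5.02 for Cfd. It gives 14.48 for Ucp1, 10.64 for the fatty acid elongase Elovl3, 9.75 for the carboxylesterase Ces1f, 9.66 for Adrb3 and 9.61 for the fatty acid transporter Slc27a2 in the authors' deposited table. These last 5 are also listed there with a fold change of exactly 0 between genotypes in the appendage, as 14 genes of the table are. All 14 have a positive region fold change. The size of such a value depends on how a group at 0 was handled and is no bound.

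**Figure D1:**
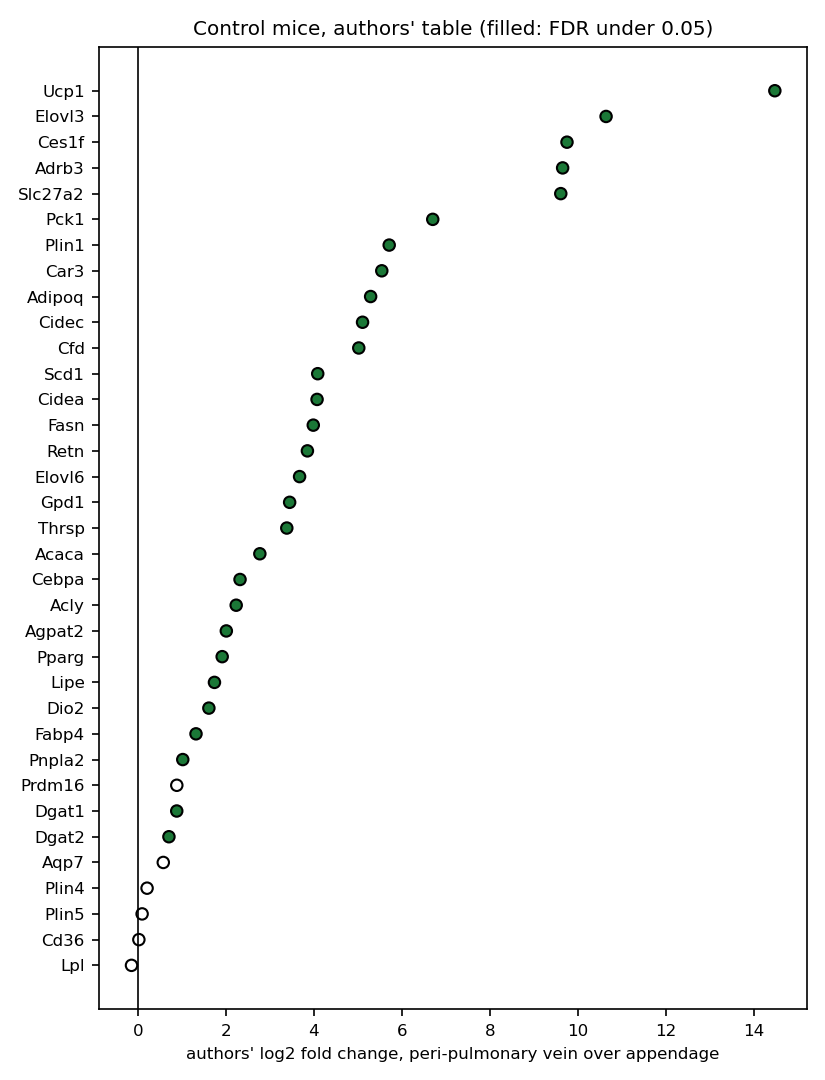
The authors' log2 fold change of peri-pulmonary vein tissue over atrial appendage in control mice is plotted on the x axis for the 35 fat genes in the authors' deposited table, one row per gene, with filled points for an FDR under 0.05. The values run from 14.48 for Ucp1 to -0.14 for Lpl, and 29 of 35 points are filled.

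The genes that did not pass in the authors' deposited table were Aqp7, Prdm16, Plin4, Plin5, Cd36 and Lpl, with log2 fold changes of 0.58, 0.89, 0.21, 0.10, 0.03 and -0.14. Plin5, Cd36 and Lpl are also used by heart muscle, which burns fatty acids. Whether this bears on their region values was not tested. In the appendage itself, the authors' deposited table lists 4 of the 35 as higher in CKO (background 16.8%) and 11 as lower (background 17.9%). The 4 in the authors' deposited table were Dio2 (1.73), the glycerol phosphate dehydrogenase gene Gpd1 (1.097), the droplet protein gene Cidea (1.04) and Acly (0.44). The lowest of the 11 in the authors' deposited table were Retn (-3.06), Pck1 (-3.03) and Car3 (-2.89). In the vein tissue the authors' deposited table lists 4 fat genes as lower in CKO (Dgat2, Retn, Plin1 and Pck1; background 2.47%) and 0 as higher (background 3.03%). The region comparison and the CKO comparison in vein tissue share the Ctrl libraries of the vein tissue. Single appendage libraries were not analysed here.

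Within the vein tissue the fat genes varied widely from library to library in both groups. The ratio of the highest to the lowest library was 5 or more in 15 of the 34 genes with no library at 0, and 10 or more in 7 of them. It ran from 1.24 for Cd36 to 67.8 for Slc27a2, with 12.6 for Ucp1, 13.8 for Cfd, 17.3 for Adrb3, 20.9 for Retn, 26.2 for the fatty acid elongase Elovl6 and 58.1 for Ces1f. The same few libraries were high or low for many of the genes. Ctrl 1 held the highest level of 17 of the 36 genes and CKO 5 that of 10. CKO 3 held the lowest level of 19 genes and CKO 1 that of 7. CKO 1 was among the 3 lowest libraries for 29 of the 36 genes and CKO 3 for 27, whereas CKO 5 was among the 3 highest for 24 and Ctrl 1 for 31. The highest libraries thus came from both groups and the lowest from CKO. On the TPM scale Ctrl 1 was highest for 22 genes and CKO 5 for 1. In whole tissue, fewer fat cells and less RNA per fat cell cannot be told apart.

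**Figure D2:**
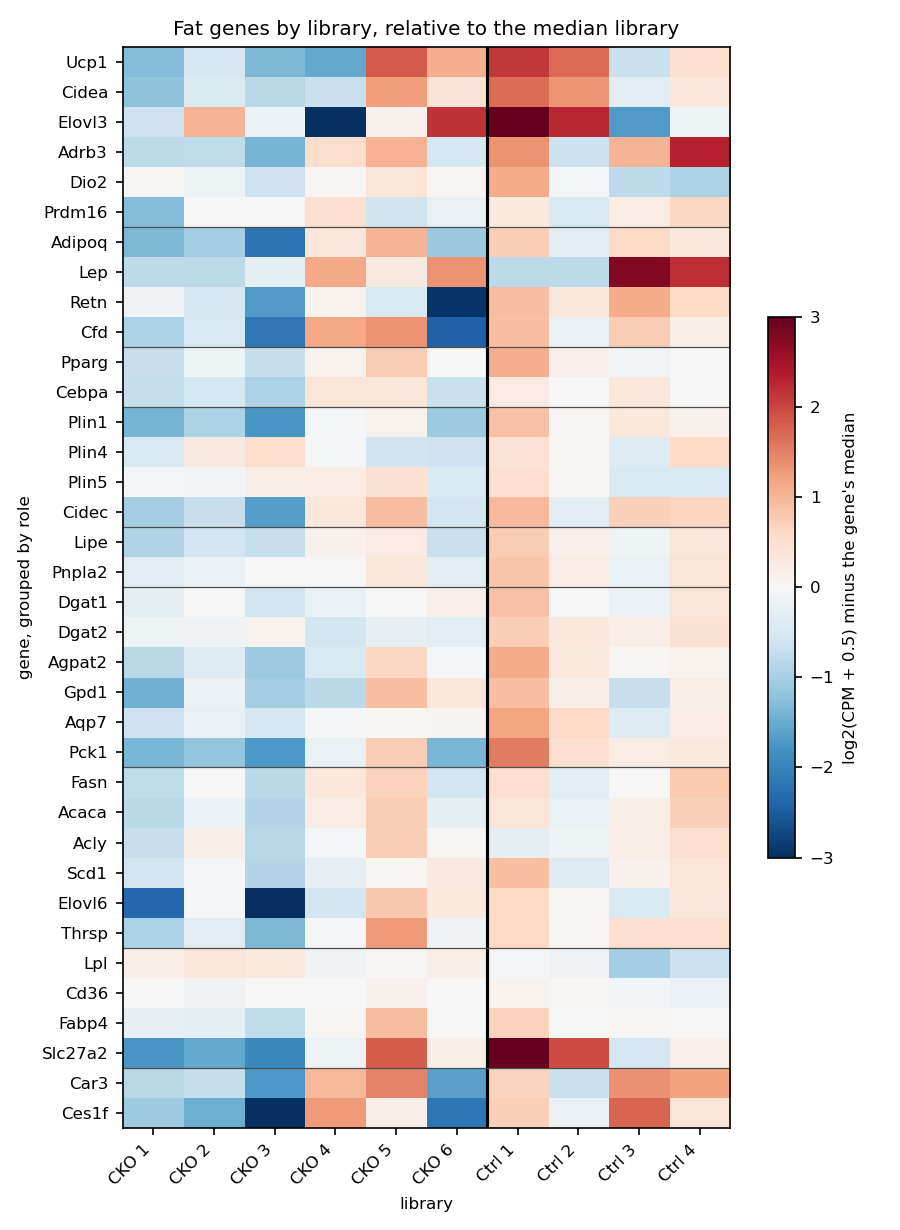
Each cell gives log2(CPM + 0.5) of 1 fat gene in 1 library minus the gene's median over the 10 libraries, with the 6 CKO libraries left of the 4 Ctrl libraries and genes in rows by role. Columns CKO 1 and CKO 3 are blue for most genes and columns CKO 5 and Ctrl 1 red, while the row of Cd36 shows little colour.

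The CKO and Ctrl groups were compared over all genes with edgeR's quasi-likelihood test. The comparison asks which RNAs differ in level in this tissue after the deletion of Tbx5. After deletion, 1 fat gene was called lower and 0 higher at an adjusted p under 0.05. Of the 17752 genes tested, which included all 36, 1.26% were called lower and 1.54% higher (2.80% in all), so that 1 call in 36 is near the background. At an unadjusted p under 0.05 there were 10 (Dgat2, Retn, Plin1, Lpl, Pck1, Lipe, Aqp7, Adrb3, Dgat1 and Agpat2), against a background of 17.0% of genes, and 9 of these were lower, against a background of 8.14%. The log2 fold change was negative for 33 of the 36 genes, against 53.4% of all genes tested, and its median was -0.51, against -0.03. Since the genes varied together from library to library, their signs are not separate pieces of evidence. The positive ones were Lpl (0.57, SE 0.19, adjusted p = 0.161), Plin5 (0.13, SE 0.22) and Cd36 (0.02, SE 0.10). For 2 of the 36, Dgat2 and Retn, the CKO libraries all lay below all Ctrl libraries, against a background of 2.70% of genes (5.72% in either direction), and for none did they all lie above.

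**Figure D3:**
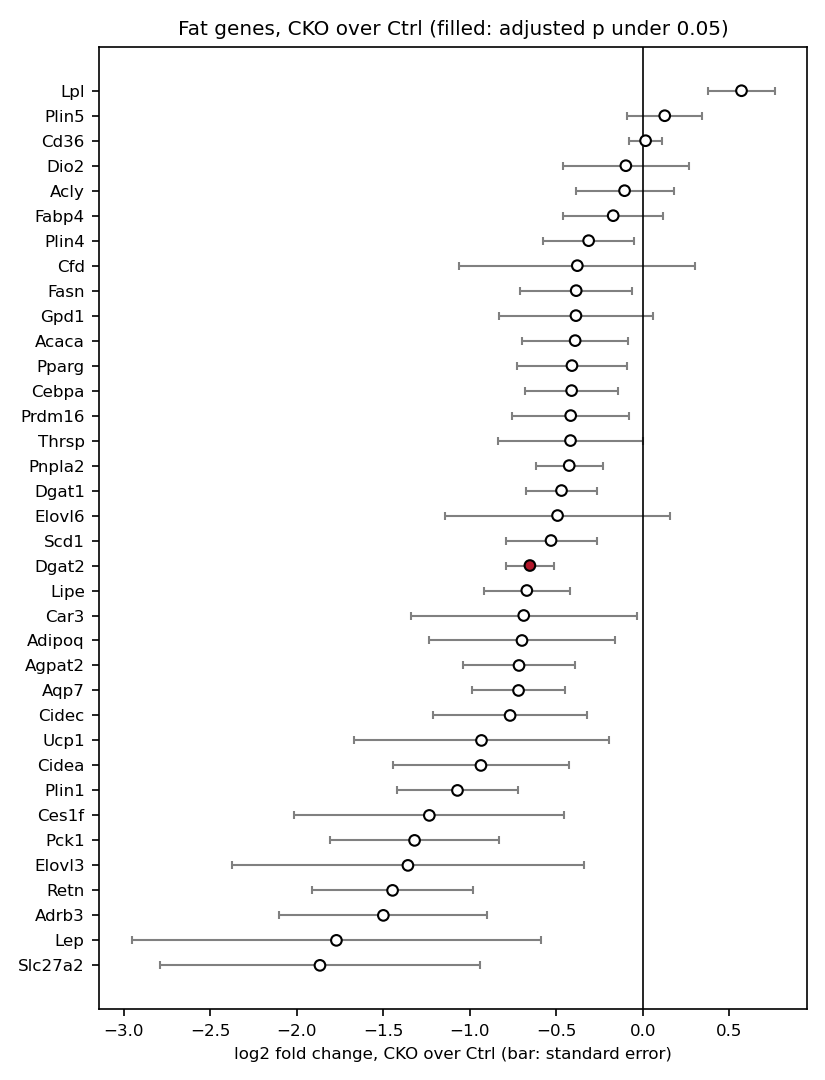
The log2 fold change of CKO over Ctrl in peri-pulmonary vein tissue is plotted on the x axis for the 36 fat genes, one row each, with bars for the standard error of the fit (6 CKO and 4 Ctrl libraries). Dgat2, at -0.65, is the only filled point (adjusted p under 0.05), and 33 of the 36 points lie left of 0.

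Dgat2 was the 1 fat gene called lower, and the call depended on the fit. It encodes one of a pair of enzymes that make triglyceride from diacylglycerol, and lies at chr7:99153658-99182719 on the minus strand (ENSMUSG00000030747). It was at 127, 133, 152, 96.4, 119.6 and 113 CPM in CKO 1 to 6 and at 238, 178, 164 and 196 CPM in Ctrl 1 to 4. The highest CKO library, CKO 3, lay below the lowest Ctrl library, Ctrl 3. The means were 123 ± 18.7 CPM in CKO and 194 ± 32.0 CPM in Ctrl (SD, n = 6 and 4; log2 fold change -0.65, SE 0.14, adjusted p = 0.0303). The fold change was -0.72 to -0.54 when any 1 library was left out, with adjusted p from 0.0192 to 0.110, and the call held without Ctrl 3, CKO 3 or CKO 4 and was lost without any of the other 7. The call was also lost with no filter on low counts (adjusted p = 0.0680; 0.443% of genes were called lower in that fit), with a replicate block (0.282; 0.146% of genes called lower), with high Xist only (0.124) and with low Xist only (0.409). Without the airway-containing CKO 4 and Ctrl 3 together it was -0.64 (adjusted p = 0.0362). CKO 3, the lowest library for 19 fat genes, was the highest CKO library for Dgat2. The partner enzyme gene Dgat1 was at 27.2 ± 4.77 CPM in CKO and 37.6 ± 12.9 CPM in Ctrl libraries (log2 fold change -0.47, adjusted p = 0.278).

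Other genes of triglyceride synthesis and glycerol handling had negative fold changes with no call. Pck1, which encodes the enzyme that makes glycerol phosphate precursors in fat (chr2:173153048-173159273, plus strand), was at 114, 131, 90.7, 257, 506 and 114 CPM in CKO 1 to 6 and at 886, 415, 347 and 368 CPM in Ctrl 1 to 4. CKO 5 alone among the CKO libraries lay inside the Ctrl range. The log2 fold change was -1.32 (SE 0.49, adjusted p = 0.203). It was -1.83 to -0.90 when any 1 library was left out, with adjusted p from 0.0296 to 0.462. Pck1 was called in only 1 of these fits, that without CKO 5 (-1.83, adjusted p = 0.0296; 1.03% of genes called lower). Gpd1, which makes glycerol phosphate from a glycolysis intermediate, was at 89.3, 216, 116, 139, 456 and 302 CPM in CKO 1 to 6 and 452, 274, 150.2 and 272 CPM in Ctrl 1 to 4. The groups overlapped widely for Gpd1 (log2 fold change -0.39, SE 0.44, adjusted p = 0.694). The glycerol channel gene Aqp7 averaged 12.5 ± 2.56 CPM in CKO and 20.6 ± 9.42 CPM in Ctrl libraries (-0.72, adjusted p = 0.212). Agpat2, an acyltransferase gene, averaged 79.0 ± 36.1 and 129.6 ± 50.6 CPM (-0.71, adjusted p = 0.289), but its value is uncertain because it overlaps the opposite-strand endothelial gene Egfl7, whose summed count was 113% of its own.

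Of the secreted proteins, resistin showed the clearest separation of the groups. Retn (chr8:3655770-3660110, plus strand) was at 15.9, 12.0, 4.94, 18.7, 12.1 and 1.81 CPM in CKO 1 to 6 and at 33.0, 21.7, 37.9 and 26.5 CPM in Ctrl 1 to 4. All CKO libraries lay below all Ctrl libraries, the nearest pair being CKO 4 and Ctrl 2. The means were 10.9 ± 6.43 CPM in CKO and 29.8 ± 7.10 CPM in Ctrl (log2 fold change -1.45, SE 0.46), but the adjusted p of 0.142 missed the threshold, and only DESeq2 among the alternative fits put it under (0.0458; DESeq2 called 2.49% of genes lower and 3.91% higher). In the authors' deposited table, Retn in vein tissue has a log2 fold change of -1.46 and an FDR of 0.00913. Adipoq (chr16:23146536-23158028, plus strand), which encodes adiponectin, was at 34.7, 43.6, 19.1, 112, 179 and 40.3 CPM in CKO 1 to 6 and at 148, 71.1, 135 and 110.1 CPM in Ctrl 1 to 4. CKO 5 stood above every Ctrl library and CKO 3 at the bottom (-0.70, SE 0.54, adjusted p = 0.539). Cfd was at 166, 228, 71.2, 710.1, 813 and 58.9 CPM in CKO 1 to 6 and at 591, 278, 539.8 and 363 CPM in Ctrl 1 to 4, with CKO 5 and CKO 4 the highest libraries of all and CKO 6 and CKO 3 the lowest (-0.38, SE 0.68, adjusted p = 0.816). Lep was close to absent, at 0, 0, 0.220, 1.42, 0.546 and 1.69 CPM in CKO 1 to 6 and at 0, 0, 5.44 and 3.54 CPM in Ctrl 1 to 4. A count of 0 in CKO 1, CKO 2, Ctrl 1 and Ctrl 2 allows up to 0.315 to 0.336 CPM (3 counts of the scaled library size), and the highest library was Ctrl 3.

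Of the brown fat genes, Ucp1, Cidea, Elovl3 and Dio2 were highest in Ctrl 1, and Adrb3 and Prdm16 in Ctrl 4. Ucp1 (chr8:83290352-83298452, plus strand) was at 59.6, 103, 57.7, 50.5, 528 and 313 CPM in CKO 1 to 6 and at 636, 478, 92.4 and 208 CPM in Ctrl 1 to 4. CKO 2, 5 and 6 lay inside the Ctrl range and CKO 1, 3 and 4 below it. The means were 185 ± 195 CPM in CKO and 354 ± 248 CPM in Ctrl libraries, a difference smaller than the spread within either group (log2 fold change -0.93, SE 0.74, adjusted p = 0.554). Elovl3, an elongase induced in active brown fat, was at 3.80, 12.9, 5.38, 0, 6.77 and 29.4 CPM in CKO 1 to 6 and 60.7, 31.4, 1.55 and 5.54 CPM in Ctrl 1 to 4. Its highest libraries were Ctrl 1, Ctrl 2 and CKO 6, and CKO 4 had 0 counts, which allows up to 0.303 CPM. Cidea, a droplet protein of brown fat, was at 23.9, 41.1, 31.2, 35.1, 134 and 76.4 CPM in CKO 1 to 6 and 179.7, 141, 45.1 and 69.5 CPM in Ctrl 1 to 4, with Ctrl 1, Ctrl 2 and CKO 5 on top (-0.93, adjusted p = 0.381). Adrb3 was at 2.46, 2.52, 1.43, 6.77, 10.04 and 3.05 CPM in CKO 1 to 6 and 12.5, 2.73, 9.77 and 24.7 CPM in Ctrl 1 to 4, and peaked in another library, Ctrl 4 (-1.50, SE 0.60, adjusted p = 0.239). Adrb3 overlaps the opposite-strand gene Gm45470, whose count was 30.5% of its own, so its value is uncertain. Dio2 averaged 50.7 ± 11.4 CPM in CKO and 54.2 ± 39.5 CPM in Ctrl libraries (-0.10, adjusted p = 0.919), and Prdm16 6.00 ± 2.49 and 8.03 ± 2.44 CPM (-0.42, adjusted p = 0.564).

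**Figure D4:**
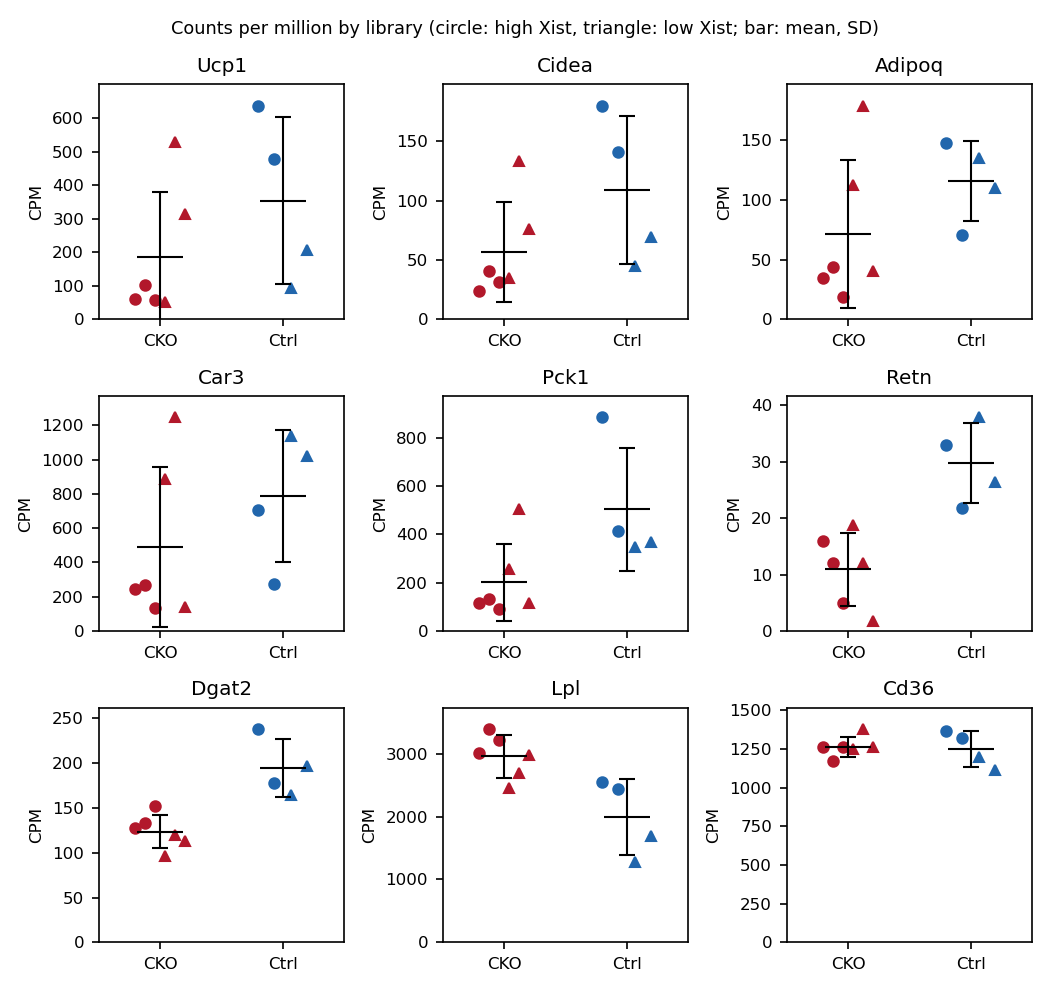
Each panel plots CPM on the y axis for 1 of 9 fat genes, with points for the 6 CKO libraries left of the 4 Ctrl libraries and bars for the mean and SD. Dgat2 and Retn show no overlap between the groups, Ucp1, Cidea, Adipoq, Car3 and Pck1 spread several-fold within CKO, 5 of the 6 CKO points of Lpl lie above all Ctrl points, and Cd36 is level.

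The ratio of Ucp1 to Adipoq counts gives the level of the brown fat gene relative to the white and brown fat hormone gene within a library. It was 1.72, 2.37, 3.02, 0.450, 2.95 and 7.76 in CKO 1 to 6 and 4.31, 6.72, 0.684 and 1.89 in Ctrl 1 to 4. The highest was 17.3 times the lowest. CKO 6, Ctrl 2 and Ctrl 1 had the most Ucp1 relative to Adipoq, and CKO 4 and Ctrl 3 the least. The same 2 lowest libraries, CKO 4 and Ctrl 3, held the airway markers and, with Ctrl 4, the lymphocyte markers. The part of this in the ratio was not tested. The ratio of Cidea to Adipoq varied 6.33-fold and was also lowest in CKO 4 (0.312) and Ctrl 3 (0.334). By contrast, the ratio of the droplet protein gene Cidec to Adipoq lay between 0.789 and 1.24 in all 10 libraries, a 1.57-fold range. Cidec itself varied 6.30-fold and Adipoq 9.37-fold. Other ratios varied more than that of Cidec to Adipoq: Plin1 to Adipoq 2.53-fold, Car3 to Adipoq 2.64-fold and Ucp1 to Cidea 2.85-fold.

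**Figure D5:**
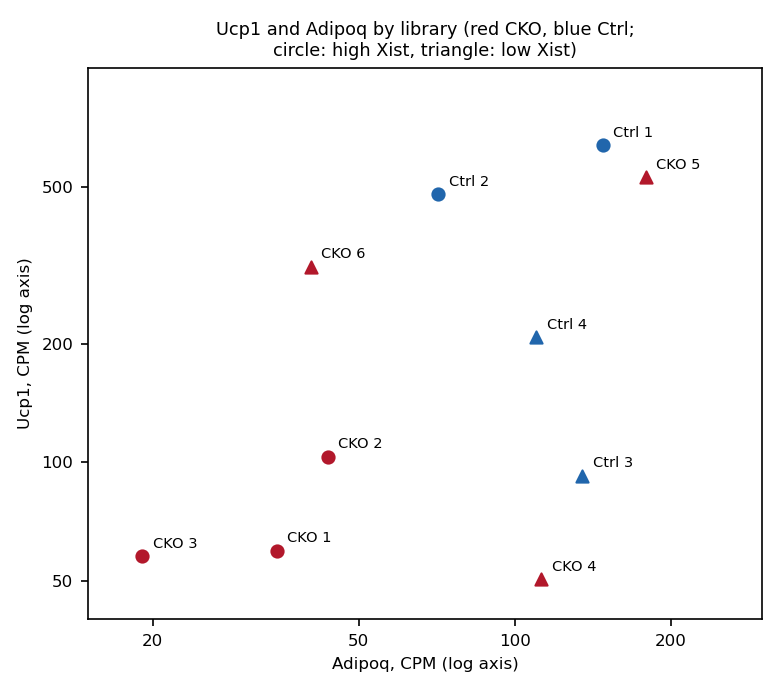
Ucp1 CPM (y axis, log scale) is plotted against Adipoq CPM (x axis, log scale), with 1 point for each of the 6 CKO (red) and 4 Ctrl (blue) libraries, as circles where Xist was high and triangles where it was low. CKO 4 and Ctrl 3 lie low for their Adipoq level (ratios 0.450 and 0.684) and CKO 6 and Ctrl 2 high (7.76 and 6.72).

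The transcription factors of fat cells varied less. Pparg (chr6:115360951-115490399, plus strand) was at 15.9, 23.4, 15.6, 28.0, 44.0 and 25.8 CPM in CKO 1 to 6 and at 56.0, 28.6, 24.5 and 25.9 CPM in Ctrl 1 to 4 (-0.41, SE 0.32, adjusted p = 0.545). Ctrl 1 stood well above the other Ctrl libraries, which lay inside the CKO range. The share of Pparg TPM assigned to the transcript that starts at the fat-specific second promoter (ENSMUST00000000450) ran from 0.154% to 92.6% over the libraries, a split too unstable to compare. Cebpa was at 22.5, 25.7, 18.9, 48.1, 48.0 and 23.3 CPM in CKO 1 to 6 and 44.2, 36.9, 46.8 and 37.5 CPM in Ctrl 1 to 4, with CKO 4 and CKO 5 highest of all and the other CKO libraries lowest (-0.41, SE 0.27, adjusted p = 0.468).

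Genes of the lipid droplet and of lipolysis were mostly highest in Ctrl 1 and lowest in CKO 3 or CKO 1. Plin1 (chr7:79720218-79732903, minus strand), the main droplet coat protein of fat cells, was at 27.4, 37.5, 21.2, 71.4, 78.5 and 34.01 CPM in CKO 1 to 6 and 134, 74.4, 90.4 and 79.5 CPM in Ctrl 1 to 4. Only CKO 5 reached the Ctrl range, above Ctrl 2 (log2 fold change -1.07, SE 0.35, adjusted p = 0.151). In the authors' deposited table Plin1 has a log2 fold change of -1.09 and an FDR of 0.0118. Cidec (chr6:113424634-113435760, minus strand), which enlarges droplets, was at 35.5, 45.7, 23.0, 91.7, 141 and 50.1 CPM in CKO 1 to 6 and 145, 59.0, 120.4 and 115 CPM in Ctrl 1 to 4 (-0.77, SE 0.45, adjusted p = 0.413). CKO 5 and CKO 4 lay inside the Ctrl range for Cidec and CKO 1, 2, 3 and 6 below it. The hormone-sensitive lipase gene Lipe was at 53.3, 67.0, 62.0, 109, 118 and 62.6 CPM in CKO 1 to 6 and 169.6, 112, 92.3 and 127 CPM in Ctrl 1 to 4, so that CKO 4 and 5 overlapped with Ctrl (-0.67, SE 0.25, adjusted p = 0.207). Pnpla2, which encodes the lipase of the first step, was at 139, 152, 175, 175, 223 and 140.5 CPM in CKO 1 to 6 and 313, 203, 152 and 231 CPM in Ctrl 1 to 4 (-0.42, SE 0.19, adjusted p = 0.296). Plin4 and Plin5, coat proteins that muscle also makes, averaged 369 ± 127 and 44.96 ± 9.47 CPM in CKO and 458 ± 132 and 41.1 ± 13.9 CPM in Ctrl libraries, with adjusted p of 0.577 for Plin4 and 0.804 for Plin5. Plin4 overlaps the opposite-strand gene Hdgfl2, whose count was 6.87% of its own.

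Fatty acid synthesis genes had small negative fold changes, between -0.53 for Scd1 and -0.10 for Acly, and none was called. Elovl6, which lengthens palmitate, was at 10.4, 52.7, 3.73, 36.8, 97.9 and 67.9 CPM in CKO 1 to 6 and 84.5, 57.9, 40.1 and 70.1 CPM in Ctrl 1 to 4, with CKO 3 and CKO 1 far below the rest (-0.49, SE 0.65, adjusted p = 0.737). Thrsp, a nuclear protein gene that follows fat synthesis, was at 62.8, 96.2, 47.7, 118, 294 and 113 CPM in CKO 1 to 6 and 185, 125, 173 and 169 CPM in Ctrl 1 to 4, with CKO 5 above every other library (-0.42, SE 0.42, adjusted p = 0.644). The fatty acid synthase gene Fasn averaged 1066 ± 473 CPM in CKO and 1392 ± 462 CPM in Ctrl libraries. The desaturase gene Scd1 averaged 1409 ± 390.0 CPM in CKO and 2034 ± 749 CPM in Ctrl libraries, and the citrate lyase gene Acly 312 ± 125 and 335 ± 80.7 CPM. Acaca, the carboxylase of the first committed step, averaged 213 ± 96.8 and 279 ± 72.5 CPM (adjusted p = 0.550).

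The genes of fatty acid uptake did not behave alike. Slc27a2, a fatty acid transporter and acyl-CoA synthetase gene, was at 0.559, 0.735, 0.439, 2.73, 12.0 and 3.50 CPM in CKO 1 to 6 and 29.8, 13.3, 2.00 and 3.43 CPM in Ctrl 1 to 4. Ctrl 1, Ctrl 2 and CKO 5 were its highest libraries, as for Cidea, and the 3 CKO libraries with high Xist its lowest (-1.86, SE 0.93, adjusted p = 0.337). Fabp4 (chr3:10204088-10208576, minus strand) was at 468, 454, 327, 571, 1074 and 549.8 CPM in CKO 1 to 6 and 896, 564, 572 and 552 CPM in Ctrl 1 to 4 (-0.17, SE 0.29, adjusted p = 0.803). CKO 5 and Ctrl 1 stood apart, CKO 4 lay inside the range of the other Ctrl libraries, and the remaining CKO libraries lay below it. Lpl and Cd36 are described because they were among the 3 positive fold changes, a choice made after their values were seen. Lpl was at 3007, 3393, 3222, 2446, 2684 and 2978 CPM in CKO 1 to 6 and 2554, 2429.6, 1285 and 1686 CPM in Ctrl 1 to 4, and CKO 4 alone lay inside the Ctrl range. It passed with DESeq2 (adjusted p = 0.0416) and with Xist class as a covariate in edgeR (adjusted p = 0.0410; 1.98% of genes were called higher and 1.58% lower in that fit). Cd36 was level in both groups, at 1263 ± 66.2 CPM in CKO and 1249 ± 115 CPM in Ctrl libraries.

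Car3 and Ces1f completed the list. Car3 was at 247, 271, 133, 889.5, 1247 and 142 CPM in CKO 1 to 6 and 707, 277, 1139 and 1024 CPM in Ctrl 1 to 4 (-0.69, SE 0.65, adjusted p = 0.626). Its 4 highest libraries were CKO 5, Ctrl 3, Ctrl 4 and CKO 4, all with low Xist, but CKO 6, also with low Xist, was second lowest. Ces1f was at 3.24, 2.31, 0.439, 18.3, 8.51 and 1.24 CPM in CKO 1 to 6 and 12.3, 6.23, 25.5 and 9.63 CPM in Ctrl 1 to 4 (-1.23, SE 0.78, adjusted p = 0.450). Ces1f is one of a cluster of similar carboxylesterase genes among which reads may be shared, so its value is uncertain.

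Fold changes were also computed within the libraries of high and of low Xist. The labels do not give the sex of the mice, and the libraries were split at 100 CPM of Xist, a boundary chosen from the data. Among the 5 libraries with high Xist (CKO 1, 2 and 3 and Ctrl 1 and 2), 7 fat genes were called lower in CKO (Aqp7, Cidea, Lipe, Pck1, Plin1, Slc27a2 and Ucp1) and 0 higher, against a background of 0.917% of genes lower and 0.613% higher. The fold change was negative there for 34 of the 35 genes tested, with a median of -1.20, and 27 had an unadjusted p under 0.05, against 17.3% of all genes. Among the 5 with low Xist (CKO 4, 5 and 6 and Ctrl 3 and 4), 0 fat genes were called in edgeR's test, 4 had an unadjusted p under 0.05 (7.98% of all genes), and 20 of 36 fold changes were negative, with a median of -0.06. Over all genes, 3 were called in that class, all higher (0.0162%). Ucp1 averaged 73.5 CPM in CKO and 557 CPM in Ctrl libraries with high Xist (log2 fold change -2.91, adjusted p = 0.00986), and 297 CPM in CKO and 150.1 CPM in Ctrl libraries with low Xist (1.02, adjusted p = 0.837). Slc27a2 averaged 0.578 CPM in CKO and 21.6 CPM in Ctrl libraries with high Xist (-5.18, adjusted p = 0.00715), and 6.08 and 2.72 CPM with low Xist (1.19, adjusted p = 0.765). The difference between the classes was itself tested as an interaction of genotype and class. No fat gene passed (lowest adjusted p = 0.327, for Slc27a2), and 1 gene of all did (0.00563%). At an unadjusted p under 0.05, 14 fat genes had an interaction, against a background of 5.13%. Since the fat genes varied together from library to library, these counts of 7, 27 and 14 genes are not separate pieces of evidence. Dgat2 had like fold changes in both classes, -0.59 with high and -0.69 with low Xist, as had Retn, with -1.32 and -1.54. With 2 Ctrl libraries in each class, and Ctrl 1 the highest library for 17 of the 36 genes, the class and the single animal cannot be told apart. The low class also held both libraries with the most airway markers (CKO 4 and Ctrl 3) and all 3 with high lymphocyte markers (CKO 4, Ctrl 3 and Ctrl 4), so that both of its Ctrl libraries carried such markers. Their part in these values was not tested.

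Other genes of fat, from lists drawn up for this tissue, were read against the same background of 2.80% called in either direction and 17.0% at an unadjusted p under 0.05. Of 18 other brown fat genes tested, 0 were called with edgeR, and the median log2 fold change was -0.31. In edgeR's test 3 had an unadjusted p under 0.05, with Cited1 (1.28) and Fabp3 (0.51) higher in CKO and Kcnk3 (-1.04) lower. DESeq2 called 3 of the 18 (background 2.49% lower and 3.91% higher). The most abundant, Fabp3 and Cpt1b, which heart muscle uses for fatty acid transport and oxidation, averaged 921 ± 128 and 430.3 ± 72.9 CPM in CKO and 646 ± 136 and 386 ± 71.7 CPM in Ctrl libraries. Of 25 other white fat genes tested, 1 was called, near the background, with a median of -0.39 over the list. It was Lpin1, a phosphatase gene of triglyceride synthesis, at 164 ± 20.9 CPM in CKO and 255 ± 48.4 CPM in Ctrl libraries (-0.64, SE 0.14, adjusted p = 0.0376). The Lpin1 call held without Ctrl 3 or CKO 3 but was lost without any of the other 8 libraries (adjusted p up to 0.132), with no filter (0.0766), with a replicate block (0.333), and with high (0.0584) or low (0.666) Xist only. Of 15 other fatty acid synthesis genes, 1 was called, again a single call (median -0.19). It was the desaturase gene Scd2, at 121 ± 17.6 CPM in CKO and 196 ± 44.5 CPM in Ctrl libraries (-0.69, SE 0.15, adjusted p = 0.0339), without overlap. The Scd2 call held without Ctrl 3 or CKO 6 but was lost without any of the other 8 libraries (adjusted p up to 0.0859), without CKO 4 and Ctrl 3 together (0.0713), with no filter (0.0668), with a replicate block (0.185), and with high (0.143) or low (0.478) Xist only. Of 14 genes of fat cell progenitors tested, 4 had a negative fold change, 0 were called with edgeR, 4 had an unadjusted p under 0.05, and the median was 0.14. The most abundant, Cd34 and Pi16, averaged 402 ± 74.0 and 310.5 ± 58.6 CPM in CKO and 275 ± 66.5 and 247 ± 49.8 CPM in Ctrl libraries.

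Markers of other cells of the tissue were set beside these values. Summed cardiomyocyte markers were at 76632 to 137350 CPM in CKO and 87650 to 125388 CPM in Ctrl libraries. They were lowest in CKO 5, a library high for fat genes, and highest in CKO 3, the library lowest for most of them. The other libraries did not all follow this order. Ctrl 1, highest for 17 fat genes, was at 120128 CPM, above CKO 1, among the 3 lowest for 29 fat genes, at 113440 CPM. CKO 4 and Ctrl 3 were at 93124 and 87650 CPM. Of the 12, 2 were called higher in CKO (Tnnt2 and Mybpc3) and 3 lower (Myl7, Sln and Myl4), against the background of 1.54% higher and 1.26% lower. Capillary endothelium markers summed to 1044 to 1175 CPM in CKO and 781 to 1010 CPM in Ctrl libraries, so that all CKO sums lay above all Ctrl sums. Of the 12 markers, 2 had a negative fold change (median 0.17), and 0 were called with edgeR (4 at an unadjusted p under 0.05, background 17.0%). Mesothelium markers summed to 281 to 876 CPM in CKO and 297 to 845 CPM in Ctrl libraries. Liver markers summed to 121 to 252 CPM in CKO and 175 to 319.6 CPM in Ctrl libraries, nearly all of it the transferrin gene Trf, which other tissues also make. Apoa1, Apoa2 and Ttr reached at most 0.988 CPM in any library, and Cps1 and Serpina1a were at 0. Skeletal muscle markers summed to 4.83 to 10.2 CPM in CKO and 4.54 to 17.7 CPM in Ctrl libraries, with Myh1 and Myh2 at 0. The part of heart muscle share in the fat gene levels was not tested.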

How the data were processed

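Reads were aligned to the mm10 build with TopHat2 2.1.1 and assigned to transcripts with StringTie 1.3.3, per the submitters' processing notes and the file headers, which also name Ensembl release 94. The authors' deposited gene table holds estimated counts: in all 54532 genes they equal transcript coverage multiplied by length and divided by 50, each transcript's result being rounded up. Coverage and TPM come from the deposited transcript files. The gene table's 10 columns of other samples were not used. The authors' deposited table of comparisons gives log2 fold changes, p-values and FDR. The labels name both polyA RNA and rRNA removal. StringTie was run with a strand option, while the kit named in the labels is not known to mark strand, so overlapping opposite-strand genes are uncertain.

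Counts of 6 CKO and 4 Ctrl libraries were scaled by TMM, filtered by expression (17752 of 33196 genes with any count kept, all 36 fat genes among them), and tested with edgeR 4.0.16's quasi-likelihood test in R 4.3.3, with Benjamini-Hochberg adjustment over all tested genes and a threshold of 0.05. CPM are TMM-scaled. SE is the fold change over the root of F. The labels do not say more of the replicates than that they are separate libraries of each genotype, so p-values measure the spread between these libraries. Alternatives were RLE or library-size scaling, no filter, DESeq2 1.42.0, limma 3.58.1 (voom), a replicate block, Xist class as covariate or split, and leaving out libraries. An interaction of genotype and Xist class was chosen after seeing the data. On simulated data the fit found 7.46% of 67 genes changed 1.5-fold, 44.8% of 67 changed 2-fold and 77.3% of 66 changed 4-fold. Of its 92 calls there, 6 were false. Real changes of these sizes can thus go without a call. The changed genes were drawn at random from all tested genes and varied separately, so these rates need not hold for the fat genes.

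The genes and lists were chosen with earlier results of these data known. Values in every library are given for Ucp1, Adipoq, Pparg, Fabp4, Plin1, Cidec, Lep, called genes and, per role, the 2 with the widest range at a mean CPM of 1 or more. Of the other fat gene lists, the called genes or, where none, the 2 most abundant were named, and marker lists were given by their sums, with called heart muscle genes and the liver and skeletal muscle genes at or near 0 named. Replicate pairs of a group differed by more than sampling noise. Intervals for counts of 0 use 3 counts and cover counting error only.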

Additional observations from a re-analysis of the deposited data

Results flagged for a closer look

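In each group, the highest and the lowest library of every fat gene were compared with their nearest neighbour by Dixon's criterion. Of 72 groups checked, 6 held a library that stood apart. Chance alone gives about 1 in 20 for separate groups of normally distributed values. The fat genes varied together, so the 72 groups are not separate checks and the rate is only a rough guide. All 6 were high values, in CKO 5 or Ctrl 1. In CKO 5, Thrsp was at 294 CPM (nearest CKO library 118 CPM), Fabp4 at 1074 CPM (nearest 571 CPM) and Slc27a2 at 12.0 CPM (nearest 3.50 CPM). In Ctrl 1, Pparg was at 56.0 CPM (nearest Ctrl library 28.6 CPM), Pck1 at 886 CPM (nearest 415 CPM) and Fabp4 at 896 CPM (nearest 572 CPM). Summed cardiomyocyte markers were lowest of all libraries in CKO 5, at 76632 CPM, and were 120128 CPM in Ctrl 1. Their part in these values was not tested.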

How the results depend on the processing

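Alternatives to the fit were compared by the number of fat genes called. With DESeq2, 2 fat genes were called lower (Dgat2 and Retn) and 1 higher (Lpl), against 2.49% of all genes lower and 3.91% higher. With Xist class as covariate 1 was called lower (Dgat2) and 1 higher (Lpl), against 1.58% of all genes lower and 1.98% higher. With no filter on low counts (0.443% of all genes lower) or with a replicate block (0.146%) 0 were called lower, with high Xist only 7 (0.917%) and with low Xist only 0 (0 genes of all lower). Leaving out 1 library gave 0 to 1 lower and 0 higher, against 0.568% to 1.74% of all genes lower and 0.479% to 1.72% higher. Of the other brown fat genes 3 were called with DESeq2 and 2 with high Xist only (0.917% of all genes lower and 0.613% higher). Without Ctrl 3 and CKO 4 together 1 of them was called (1.43% of all genes lower and 1.42% higher), and 0 to 1 with 1 library left out. Of the other white fat genes 0 were called with no filter, a replicate block, high Xist only or low Xist only, 2 with Xist class as covariate, and 0 to 1 with 1 library left out. Of the other fatty acid synthesis genes 0 were called with no filter, a replicate block, high Xist only, low Xist only or without Ctrl 3 and CKO 4 together, 2 with Xist class as covariate, and 0 to 1 with 1 library left out. The cause was not tested, though each Xist class holds fewer libraries.

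Of the 33 fat genes with a negative sign, 32 or 33 kept it in each alternative fit of all libraries, and 31 to 33 with 1 library left out, counting those tested. Signs turned for single genes with low Xist only: Ucp1 to 1.02, Cidea to 0.54, Elovl3 to 1.78, Dio2 to 1.08, Cfd to 0.25, Pparg to 0.39, Agpat2 to 0.064, Gpd1 to 0.53, Aqp7 to 0.10, Elovl6 to 0.32, Thrsp to 0.061, Fabp4 to 0.40 and Slc27a2 to 1.19. With high Xist only Plin5 turned to -0.24 and Cd36 to -0.12. Dio2 turned to 0.12 with limma voom and 0.011 with Xist class as covariate, Plin5 to -0.015 without Ctrl 3 and CKO 4 together, and Cd36 to -0.042 by library size and -0.011 with the replicate block. With 1 library left out, Dio2 ranged from -0.33 to 0.53, Acly from -0.31 to 0.050, Cd36 from -0.033 to 0.064 and Fabp4 from -0.45 to 0.030. Same-numbered CKO and Ctrl libraries did not deviate together (correlations 0.0313, 0.0876, -0.319 and 0.0894). The labels do not state that the numbers pair mice, and these correlations cannot exclude it. Counts under 20 in some libraries limit Lep, Elovl3, Ces1f, Slc27a2, Retn (16 in CKO 6) and Adrb3 (13 in its lowest CKO library).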
